A study of Mus musculus with 126 samples.

Results

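The 9 goblet cell genes described here are Muc2, Clca1, Spink4, Tff3, Fcgbp and Zg16, which encode secreted products of the goblet cell, Agr2, which encodes a folding enzyme, and Atoh1 and Spdef, which encode transcription factors of the goblet lineage. They were chosen by gene symbol, as mucus products to set against lineage factors, with earlier results of these data known. Each of the 9 stood on a single line of all 7 deposited tables of 24883 genes, and all 9 were among the 11380 genes that passed the filter on low values.

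Goblet cells are the mucus-secreting cells of the intestinal epithelium. In the colon they build a mucus layer whose network is formed by the MUC2 mucin, which is folded in the endoplasmic reticulum, glycosylated in the Golgi, packed in granules and released into the lumen together with smaller proteins. ATOH1 directs crypt progenitors to the secretory fate under the control of Notch signalling, and SPDEF acts later, in the maturation of goblet cells.

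RNA was measured in mouse colon in 7 conditions of 18 libraries each, 3 at each of 6 times. Times are zeitgeber times (ZT), in hours after lights on, from ZT0 to ZT20 in steps of 4 h. The genotype arm held Bmal1 knock out, MR knock out and wild type colon. The knock out mice were 8 to 12 weeks old and ate normal chow ad libitum. The labels call the Bmal1 knock out gut-specific and name neither the promoter nor the Cre line; for the MR knock out they do not give the tissue of the deletion, and for the wild type they give no age or diet. BMAL1, encoded by Arntl, is a core clock transcription factor, and MR, encoded by Nr3c2, is the mineralocorticoid receptor. The feeding arm held 4 groups of male C57BL/6 mice, 8 weeks old, on a cycle of 12 h light and 12 h dark. The diets were high salt or low salt, each given to day fed and to night fed mice, and food was offered only during the named phase. Colon RNA was a bulk extract, so fewer goblet cells and less of a transcript per goblet cell cannot be told apart.

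Values are FPKM (fragments per unit length of transcript and unit of sequencing depth), rescaled to a common level across all libraries, and a change is a difference of log2(rescaled FPKM + 0.5). FPKM sums per library ran between 158029 and 660895 before rescaling. Arntl averaged 4.42 ± 0.995 FPKM in Bmal1 knock out colon and 9.35 ± 6.31 in wild type (SD, n = 18 each), with overlapping ranges of 2.88 to 6.29 and 2.25 to 19.2 over the cycle. Nr3c2 averaged 3.06 ± 0.991 FPKM in MR knock out colon and 15.2 ± 4.92 in wild type, and its ranges, 1.66 to 5.34 and 7.07 to 23.3, did not overlap. The rescaling gave 14 libraries a scale factor under 0.6, namely 9 of Bmal1 knock out (1 at ZT0, 3 at ZT12, 3 at ZT16, 2 at ZT20) and 5 of high salt night fed (3 at ZT8, 2 at ZT12). Ribosomal RNA genes held a median of 1.99% of their FPKM, against 0.247% in the other 112. A length score, the slope of a library's deviations on log2 transcript length, averaged -0.10 ± 0.14 in Bmal1 knock out, 0.01 ± 0.13 in the MR knock out and 0.17 ± 0.11 in wild type colon (SD), while the 4 feeding groups averaged between -0.07 and 0.01. All 7 epithelial markers (among them Epcam, Cdh1 and Krt8) were detected, whereas the summed level of 6 smooth muscle genes stayed at or below 4.70 FPKM and that of 5 fibroblast genes at or below 12.7 FPKM in every library.

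In the genotype arm 3 libraries stood apart in the goblet genes. The library labelled wild type ZT8 replicate 3 had 10899 FPKM of Spink4, against 1183 to 4954 in the other 17 wild type libraries, and its length score of -0.17 lay outside their range of 0.08 to 0.31. The libraries labelled MR knock out ZT0 replicate 3 and ZT20 replicate 3 had 1272 and 1252 FPKM of Spink4, against 6681 to 16607 in the other 16, with length scores of 0.28 and 0.26 against -0.18 to 0.09. In the goblet products these 3 libraries go against their labels. Itln1, which encodes an intelectin, was at 0.43 and 0.72 FPKM in the MR knock out pair, against 46.4 to 124 in the other 16, and at 38.5 FPKM in the wild type library, against 0.532 to 19.7 in the other 17. Nr3c2, the targeted gene, was at 5.34 and 4.17 FPKM in the MR knock out pair, against 1.66 to 4.84 in the other 16, and so the first of them was the highest of its group, though both lay below every wild type library. Nr3c2 was at 7.07 FPKM in the wild type library, against 8.00 to 23.3 in the other 17, the lowest of its group. Arntl was at 18.1 and 17.8 FPKM in the MR knock out pair, against 1.63 to 12.8 in the other 16. Those 16 cover all 6 times, and Arntl varies over the cycle. In the wild type library Arntl was at 2.76 FPKM, within the 2.25 to 19.2 of the other 17. Summed Hox genes of the distal colon did not set the 3 libraries apart. These sums were 129 and 108 FPKM in the MR knock out pair (29.0 to 159 in the others), and 195 in the wild type library (115 to 199). Whether libraries were exchanged between groups was not tested. They were kept under their labels, and values without all 3 are given beside the calls that changed.

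Upstream sequences were printed for the 5 members found in the RefSeq promoter table of build GRCm38.p6, since shared letters upstream of genes that are read together can be set against how the genes vary. Each line gives the 250 bases before the annotated start, 5′ to 3′ on the strand of the gene, with CAGCTG, the E-box form bound by ATOH1-type factors, in capitals.
Muc2: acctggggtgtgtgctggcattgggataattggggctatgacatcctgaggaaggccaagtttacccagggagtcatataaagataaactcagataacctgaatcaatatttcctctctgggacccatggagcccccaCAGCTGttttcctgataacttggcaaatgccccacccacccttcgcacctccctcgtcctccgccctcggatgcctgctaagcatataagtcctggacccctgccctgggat
Fcgbp: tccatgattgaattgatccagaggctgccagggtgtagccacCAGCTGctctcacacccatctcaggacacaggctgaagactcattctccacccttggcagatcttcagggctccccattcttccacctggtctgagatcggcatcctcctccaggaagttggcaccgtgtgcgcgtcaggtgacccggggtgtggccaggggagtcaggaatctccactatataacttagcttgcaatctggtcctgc
Agr2: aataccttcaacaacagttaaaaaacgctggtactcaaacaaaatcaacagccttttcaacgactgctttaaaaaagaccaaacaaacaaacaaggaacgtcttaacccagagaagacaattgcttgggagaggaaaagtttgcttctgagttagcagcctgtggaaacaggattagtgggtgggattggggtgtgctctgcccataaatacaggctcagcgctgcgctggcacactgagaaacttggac
Atoh1: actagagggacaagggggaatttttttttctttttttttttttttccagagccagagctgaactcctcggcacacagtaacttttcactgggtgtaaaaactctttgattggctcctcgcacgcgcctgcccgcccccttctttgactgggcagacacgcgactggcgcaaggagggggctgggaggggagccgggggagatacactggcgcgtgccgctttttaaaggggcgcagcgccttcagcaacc
Spdef: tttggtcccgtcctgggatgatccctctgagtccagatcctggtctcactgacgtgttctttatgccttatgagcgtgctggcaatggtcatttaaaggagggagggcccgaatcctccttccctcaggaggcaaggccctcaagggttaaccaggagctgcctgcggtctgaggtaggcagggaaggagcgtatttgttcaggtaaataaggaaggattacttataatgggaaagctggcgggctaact
The windows are chr7:141690090-141690339 on the plus strand for Muc2, chr7:28070986-28071235 on the plus strand for Fcgbp, chr12:35992675-35992924 on the plus strand for Agr2, chr6:64728875-64729124 on the plus strand for Atoh1 and chr17:27728952-27729201 on the minus strand for Spdef. CAGCTG occurred once in the window of Muc2, at position -112 from the start, and once in that of Fcgbp, at -208, and in none of the other 3. It occurred in 13.0% of all 32851 RefSeq promoters of that length. The clock E-box CACGTG, found in 6.02% of them, was in none of the 5 windows. Both motifs are their own reverse complement, so 1 search covers both strands, and they do not overlap.

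Spink4, a Kazal-type protease inhibitor, had the highest mean per length of the 9 transcripts in every condition, and the lineage factors had the lowest. By the median Zg16 exceeded Spink4 in wild type (1993 against 1818 FPKM) and in low salt night fed colon (2489 against 1765). Without the wild type library that stood apart, the wild type mean of Zg16 was also the higher, 2014 against 1907 FPKM. Mean Spink4 FPKM was 12277 ± 4820 in Bmal1 knock out, 8493 ± 3460 in the MR knock out and 2407 ± 2294 in wild type colon, and 2721 ± 1170 in high salt day fed, 4829 ± 3299 in night fed on high salt, 4575 ± 2023 in low salt day fed and 2465 ± 1291 in low salt night fed colon (SD, n = 18 each). Atoh1 ranged only from 9.44 ± 1.46 FPKM in low salt day fed to 18.2 ± 5.10 in wild type colon, and Spdef from 34.9 ± 6.42 in low salt night fed to 63.8 ± 11.1 in Bmal1 knock out colon. The highest condition mean exceeded the lowest 7.04-fold for Clca1 and 5.10-fold for Spink4, 2.31-fold for Fcgbp and 2.15-fold for Zg16. The other 5 varied less, between 1.43-fold for Tff3 and 1.93-fold for Atoh1.

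The order of the conditions differed from gene to gene. Muc2, the gel-forming mucin, was highest in wild type at 847 ± 209 FPKM, followed by MR knock out at 706 ± 187 and Bmal1 knock out at 630 ± 221, with the 4 feeding groups between 470 ± 185 (high salt night fed) and 529 ± 173 (high salt day fed). Clca1, a secreted metalloprotease of mucus, was highest in MR knock out at 1879 ± 1215 and Bmal1 knock out at 1481 ± 834, followed by low salt day fed at 729 ± 319, wild type at 504 ± 219, high salt night fed at 396 ± 169, low salt night fed at 363 ± 104 and high salt day fed at 267 ± 78.4. Among the steps between neighbours in the order of each gene, only 2 exceeded the larger of the SDs of the 2 conditions. These were the step in Spink4 between MR knock out and high salt night fed, and the step in Atoh1 between wild type and high salt day fed. Each of these steps sets a condition of the genotype arm against a feeding group. The arms were not compared by a test, and what differs between them cannot be told apart here.

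Tff3, a trefoil peptide, Fcgbp, a large mucus protein, and Zg16, a lectin-like protein that binds bacteria, each followed an order of their own. Tff3 lay between 1179 ± 313 FPKM in high salt day fed and 1692 ± 518 in low salt night fed colon, with the 3 genotypes between 1228 ± 492 and 1331 ± 459. Fcgbp was highest in the knock outs, at 376 ± 153 in Bmal1 knock out and 372 ± 213 in MR knock out, and lay between 163 ± 44.8 in high salt day fed and 228 ± 44.0 in wild type elsewhere. Zg16 was lowest in high salt day fed, at 1274 ± 276, and MR knock out, at 1299 ± 645, and highest in Bmal1 knock out, at 2735 ± 1008. Its annotated span also holds the antisense lincRNA Gm44939 and the small RNA Gm22747. Agr2, a protein disulfide isomerase of the endoplasmic reticulum needed for mucin folding, lay between 973 ± 173 in low salt night fed and 1551 ± 515 in Bmal1 knock out. Every comparison of 2 conditions given here had overlapping ranges over the 18 libraries of each.

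**Figure D1:**
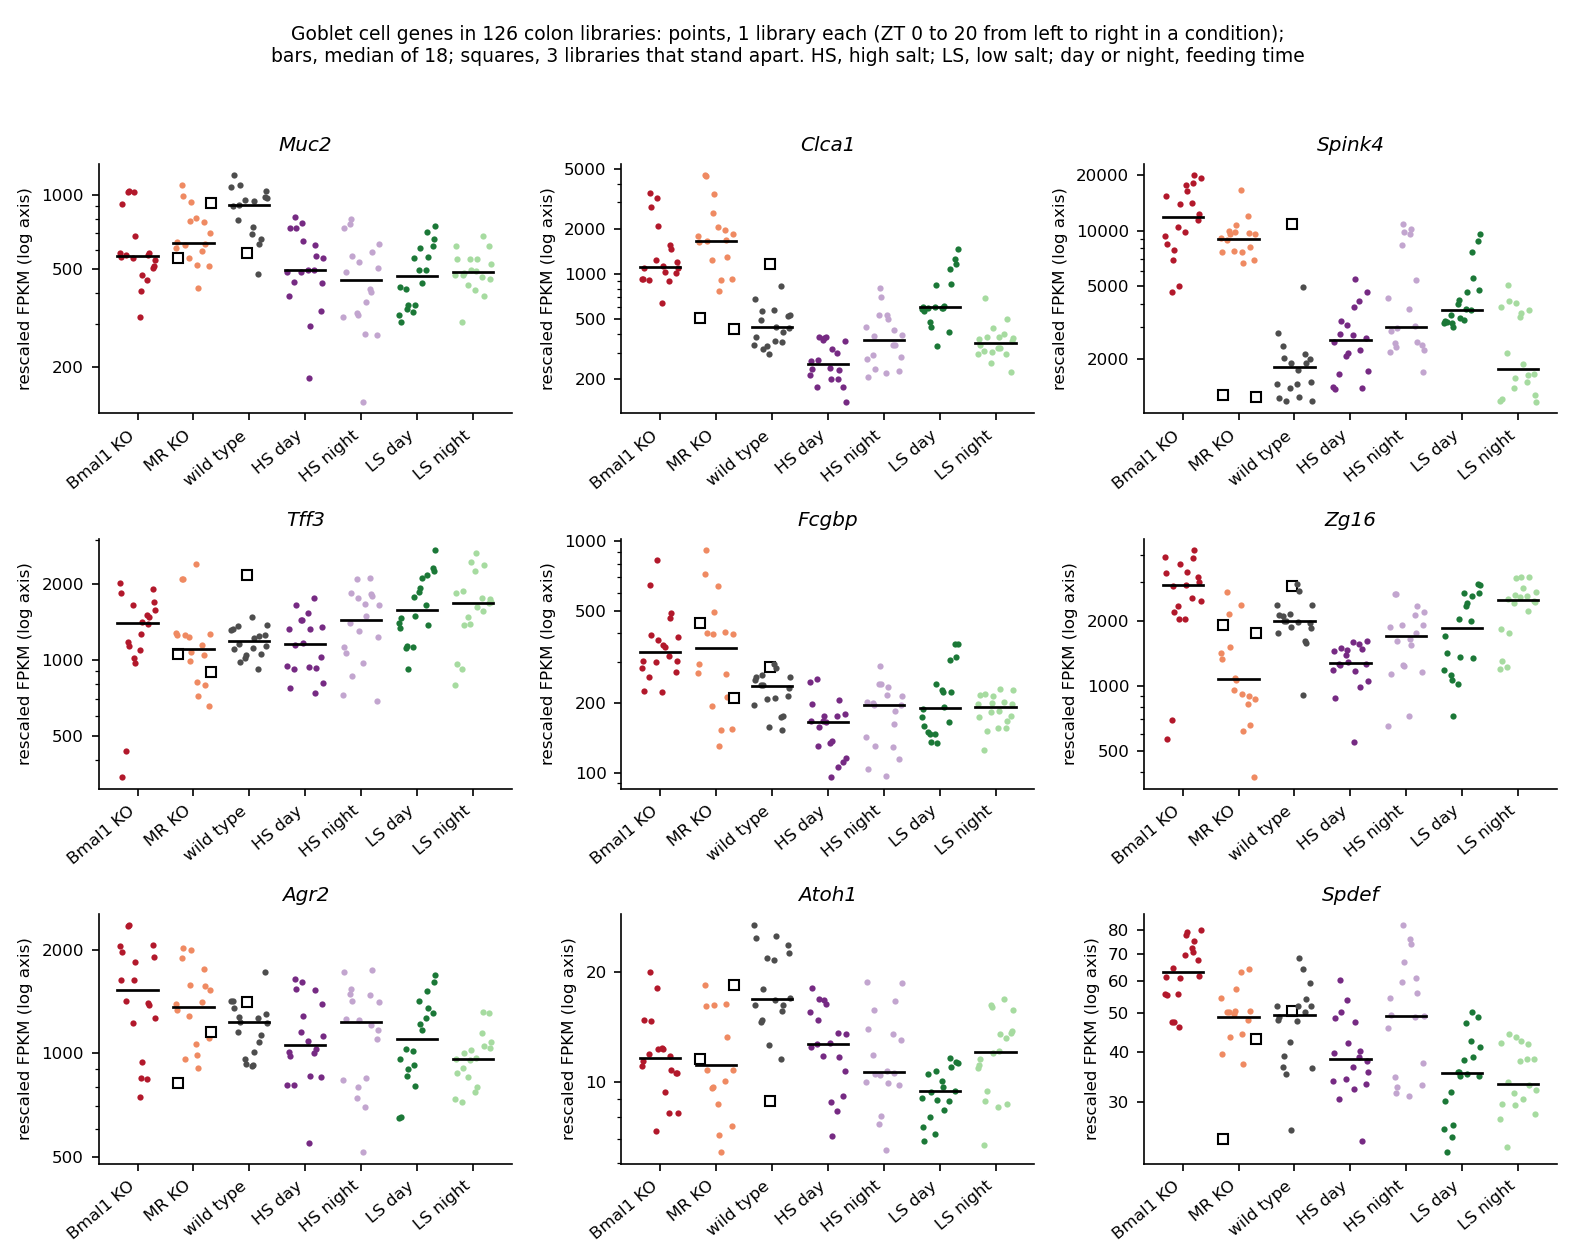
Rescaled FPKM (log axis) of the 9 goblet cell genes in every library, by condition, with Bmal1 KO, MR KO and wild type (knock out abbreviated KO) on the left and the high salt (HS) and low salt (LS) feeding groups on the right; bars are medians of 18 libraries and squares are the 3 libraries that stand apart. Clca1 and Spink4 spread most across conditions, the 2 MR KO squares sit at 1272 and 1252 FPKM of Spink4, and the wild type square at 10899.

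The first question of the genotype arm was how loss of the clock factor or of the mineralocorticoid receptor bears on colon transcripts. In Bmal1 knock out colon the products Clca1 and Spink4 were higher under every scaling. Fcgbp, Agr2 and Spdef were higher too, but not on the FPKM as deposited, where all 3 turned lower, and Muc2 and Atoh1 were lower. Thus 5 of the 9 were higher and 2 lower, by limma with Benjamini-Hochberg adjustment over all tested genes and a threshold of 0.05. In that comparison 80.3% of all tested genes were called, 31.1% higher and 49.2% lower, so that 7 of 9 is close to the background. The median difference of the members was 0.30 and that of all tested genes -0.13. In the fit without the low-scale libraries, with cosine and sine terms in place of the time means, Fcgbp (0.67, adjusted p = 0.070), Muc2 (-0.41, 0.084) and Spdef (0.30, 0.106) did not pass, and in the same fit with all libraries the 7 calls were kept.

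Spink4 had a lowest, median and highest value of 4645, 11851 and 20023 FPKM in Bmal1 knock out colon, against 1183, 1818 and 10899 in wild type. Apart from the library that stood apart, the wild type values ended at 4954, and 5 of the 6 times had no overlap between genotypes. The difference was 2.53 ± 0.25 on the log2 scale (SE here and in all differences; limma adjusted p = 4.2e-11), and it was positive at all 6 times, the smallest being 1.56 at ZT8. Clca1 had 644, 1122 and 3452 FPKM (lowest, median, highest) in Bmal1 knock out and 294, 442 and 1174 in wild type. Its groups did not overlap at any of the 6 times. It differed by 1.48 ± 0.22 (adjusted p = 1.3e-07).

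The other products changed less. Fcgbp had 223, 333 and 826 FPKM in Bmal1 knock out and 153, 236 and 294 in wild type colon, a difference of 0.66 ± 0.17 (adjusted p = 5.9e-04). Muc2 had 320, 564 and 1040 FPKM in Bmal1 knock out, against 480, 907 and 1204 in wild type. It was lower by -0.46 ± 0.11 (adjusted p = 2.1e-04), at 5 of the 6 times. Tff3 and Zg16 did not pass, with differences of 0.01 (95% interval -0.32 to 0.35, adjusted p = 0.949) and 0.30 (-0.10 to 0.70, adjusted p = 0.169).

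The lineage factors moved in opposite directions in the Bmal1 knock out. Atoh1 had 7.36, 11.6 and 20.0 FPKM, against 8.84, 16.9 and 26.8 in wild type, and was lower by -0.57 ± 0.12 (adjusted p = 3.1e-05) and at all 6 times. Spdef had 46.1, 63.1 and 80.2 FPKM, against 25.6, 49.4 and 68.5 in wild type, and was higher by 0.42 ± 0.08 (adjusted p = 2.3e-05) and at all 6 times. Agr2, the folding enzyme, was higher by 0.30 ± 0.10 (adjusted p = 0.0062), with 747, 1526 and 2364 FPKM against 919, 1231 and 1722.

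The smaller differences depended on the scaling and on the length score. With FPKM as deposited, where all tested genes had a median difference of -0.89, Agr2 became -0.61, Spdef -0.47, Fcgbp -0.24, Tff3 -0.89 and Zg16 -0.60, while Clca1 and Spink4 remained higher at 0.58 and 1.62. After quantile normalization Agr2 became -0.37, and Fcgbp was 0.28 with no call. When the length score entered the fit, Muc2, Agr2, Atoh1 and Spdef lost their calls (-0.14, 0.13, -0.13 and 0.12), while Clca1 and Spink4 kept theirs at 0.91 and 1.03. That score is computed from the same tested genes and differs between the genotypes, so the fit cannot fully separate it from genotype. The calls of Fcgbp and Agr2 were also lost when every replicate numbered 2 was left out.

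In MR knock out colon, compared with the same wild type libraries, Clca1, Spink4 and Fcgbp were higher and Muc2, Zg16 and Atoh1 lower, 3 and 3 of the 9. Here 66.0% of all tested genes were called, 24.7% higher and 41.3% lower, again near the share among the members. The median difference was -0.00 for the members and -0.08 for all tested genes.

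Clca1 had 428, 1670 and 4565 FPKM (lowest, median, highest) in MR knock out, against 294, 442 and 1174 in wild type, and was higher by 1.72 ± 0.22 (adjusted p = 3.1e-08). Spink4 had 1252, 8969 and 16607 FPKM in MR knock out and 1183, 1818 and 10899 in wild type, a difference of 1.91 ± 0.25 (adjusted p = 6.7e-08). Both were higher at all 6 times, and without the 3 libraries that stood apart the differences were 2.01 and 2.36. Zg16 had 379, 1075 and 2701 FPKM in MR knock out, against 904, 1993 and 2953 in wild type. It was lower by -0.79 ± 0.20 (adjusted p = 9.8e-04) and at 5 of 6 times, and stayed lower under every alternative, between -1.16 and -0.70.

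Atoh1 had 6.43, 11.1 and 18.4 FPKM in MR knock out, against 8.84, 16.9 and 26.8 in wild type, a difference of -0.60 ± 0.12 (adjusted p = 4.2e-05). Its sign held at all 6 times, with the largest gap at ZT12, where MR knock out had 8.68, 7.14 and 6.43 FPKM and wild type 21.5, 16.8 and 25.1. Fcgbp differed by 0.52 ± 0.17 (adjusted p = 0.0074) and Muc2 by -0.26 ± 0.11 (adjusted p = 0.030), and the Muc2 call was lost with the length score in the fit (-0.07) and in 9 of the fits that left libraries out. The Fcgbp call was lost on the FPKM as deposited (0.35), after quantile normalization (0.27) and without the replicates numbered 2. Tff3, Agr2 and Spdef did not pass, at -0.08, 0.16 and -0.00 with 95% intervals of -0.41 to 0.25, -0.04 to 0.35 and -0.17 to 0.16; without the 3 libraries apart, Agr2 passed at 0.24 (adjusted p = 0.026).

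Since both knock outs were set against the same wild type libraries, the knock outs were also compared directly. There 58.5% of all tested genes were called, 26.6% higher and 31.8% lower in Bmal1 knock out, and 3 of the 9 members were called, all higher. Zg16 differed most, by 1.09 ± 0.20 (adjusted p = 1.9e-05), with 567, 2907 and 4225 FPKM in Bmal1 knock out against 379, 1075 and 2701 in MR knock out. Spdef differed by 0.43 ± 0.08 (adjusted p = 5.0e-05) and at all 6 times, and Spink4 by 0.62 ± 0.25 (adjusted p = 0.033). The Spink4 call was lost without the 3 libraries apart (0.32, adjusted p = 0.081) and its sign turned with FPKM as deposited (-0.11). With FPKM as deposited Spdef became -0.29, against -0.63 for the median of all tested genes, and Zg16 was 0.37 with no call (adjusted p = 0.072). In the cosine and sine fit without the low-scale libraries Spdef (0.30, adjusted p = 0.147) and Spink4 (0.56, 0.363) did not pass and Zg16 did (1.24, 0.011).

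**Figure D2:**
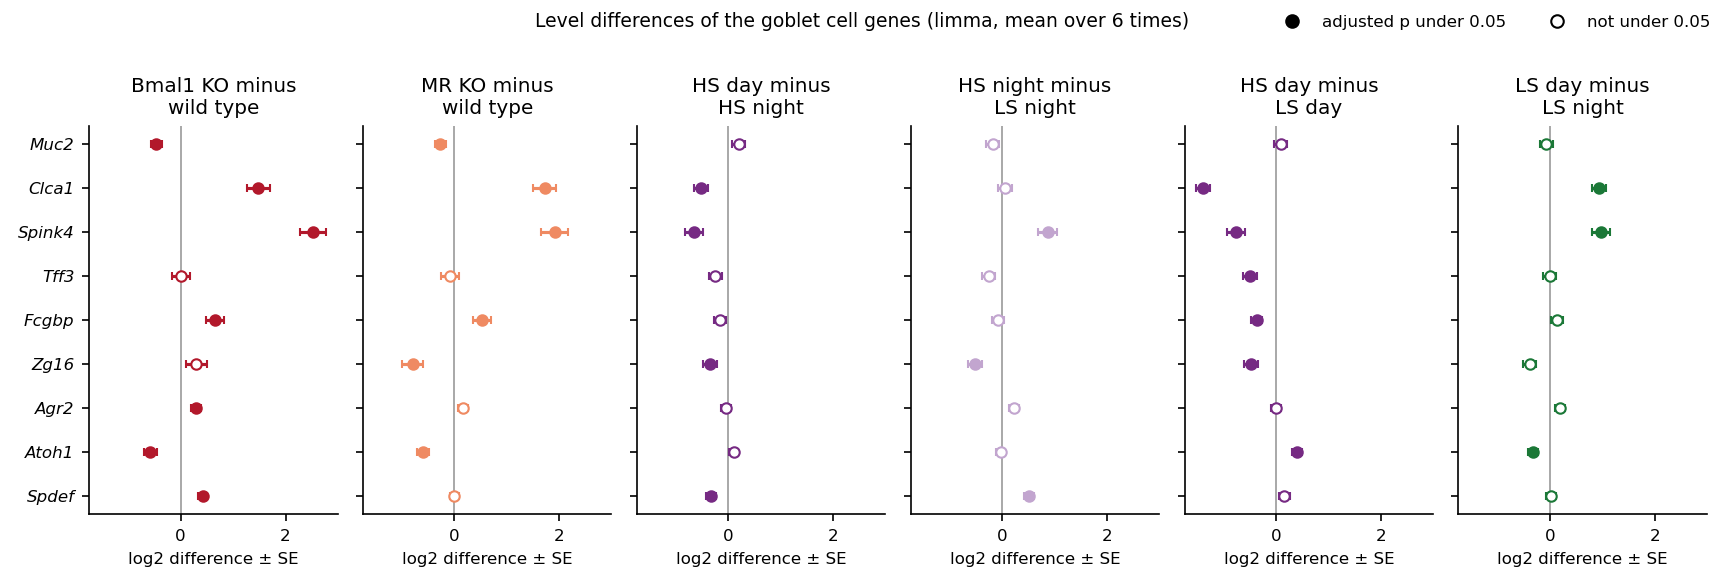
Log2 differences with SE (x axis) of the 9 goblet cell genes (y axis) in 6 comparisons of conditions, averaged over 6 times; filled points had a limma adjusted p under 0.05. In Bmal1 KO against wild type and MR KO against wild type Clca1 and Spink4 lie furthest to the right (1.48 and 2.53, 1.72 and 1.91), and in high salt (HS) day fed against low salt (LS) day fed Clca1 lies furthest to the left at -1.39.

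In the feeding arm the labelled factors were salt content and feeding time, and the 4 comparisons share groups with each other. On low salt diet, day feeding went with higher Clca1 and Spink4 and lower Atoh1 than night feeding, 2 higher and 1 lower of 9. Only 3.33% of all tested genes were called in that comparison, 1.04% higher and 2.29% lower, so 3 of 9 is above the background. This excess is a description only, since the members were chosen with earlier results of these data known. Clca1 had 333, 599 and 1474 FPKM (lowest, median, highest) in low salt day fed, against 222, 347 and 688 in low salt night fed colon. It was higher by 0.93 ± 0.14 (adjusted p = 8.8e-06) and at all 6 times, with the largest difference, 2.06, at ZT20.

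Spink4 had 2982, 3721 and 9543 FPKM in low salt day fed and 1169, 1765 and 5042 in low salt night fed, a difference of 0.97 ± 0.17 (adjusted p = 4.4e-04) that was positive at 5 of 6 times. At ZT20 the 3 day fed libraries had 8776, 4774 and 9543 FPKM and the 3 night fed libraries 1652, 1275 and 1169, with no overlap. The call was lost when every replicate numbered 1 was left out (adjusted p = 0.065). Atoh1 had 6.88, 9.44 and 11.6 FPKM in low salt day fed, against 6.75, 12.0 and 16.8 in low salt night fed. It was lower by -0.33 ± 0.09 (adjusted p = 0.037), and this call was lost in 23 of the fits that left libraries out, with cosine and sine terms (adjusted p = 0.068) and on the FPKM as deposited (0.399). Muc2, Tff3, Fcgbp, Agr2 and Spdef differed by between -0.07 and 0.18 and did not pass, nor did Zg16 at -0.39 (adjusted p = 0.084).

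On high salt diet the same contrast ran the other way for Clca1 and Spink4, but their calls were lost on the FPKM as deposited (-0.06 and -0.20, limma adjusted p = 0.657 and 0.152). Of all tested genes 27.6% were called, 14.7% higher and 12.9% lower, and 4 of the 9 members were called, all lower in high salt day fed. Clca1 had 140, 251 and 379 FPKM in high salt day fed, against 205, 361 and 811 in high salt night fed, a difference of -0.51 ± 0.14 (adjusted p = 0.0043), lower at all 6 times. Spink4 had 1378, 2551 and 5458 FPKM in high salt day fed and 1694, 2981 and 10895 in high salt night fed. It was lower by -0.66 ± 0.17 (adjusted p = 0.0044) and at 5 of 6 times. Zg16 differed by -0.35 ± 0.13 (adjusted p = 0.039) and Spdef by -0.32 ± 0.10 (adjusted p = 0.012), and with FPKM as deposited, where all tested genes had a median of 0.41, both turned positive (0.11 and 0.13). The Zg16 call was lost in 20 of the fits that left libraries out and after quantile normalization (-0.12).

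The 5 high salt night fed libraries with a low scale factor held 8391 to 10895 FPKM of Spink4, against 1694 to 5364 in the other 13 of that group, and 59.6 to 82.3 FPKM of Spdef, against 31.1 to 61.0. Without them, in a fit with cosine and sine terms in place of the time means, none of the 4 calls remained, with -0.21 for Clca1, -0.25 for Spink4, -0.39 for Zg16 and -0.03 for Spdef (limma adjusted p between 0.191 and 0.88). With the same terms and all libraries kept, Clca1, Spink4 and Spdef passed (adjusted p between 0.0072 and 0.017) and Zg16 did not (0.078). After quantile normalization Spink4 and Zg16 did not pass (-0.26 and -0.12), and on the FPKM as deposited Zg16 was at 0.11 (adjusted p = 0.465).

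The difference between the 2 feeding contrasts was tested itself. Among all tested genes 19.8% were called, 11.0% with a larger and 8.77% with a smaller day minus night difference on high salt, and 3 members were called. Clca1 differed by -1.45 ± 0.19 (adjusted p = 7.0e-08), from contrasts of -0.51 on high salt and 0.93 on low salt. Spink4 differed by -1.63 ± 0.25 (adjusted p = 1.4e-06), from -0.66 and 0.97. Both kept their calls in the cosine and sine fit without the libraries of low scale factor, at -1.15 and -1.23, and under every other alternative. Atoh1 differed in the opposite direction, by 0.43 ± 0.13 (adjusted p = 0.020), from 0.10 on high salt and -0.33 on low salt; this call was lost in the cosine and sine fit without those libraries (0.43, adjusted p = 0.124) and kept in the same fit with all libraries (adjusted p = 0.030).

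Between the day fed groups, high salt went with lower levels of 5 products and a higher level of Atoh1. Of all tested genes 14.8% were called, 7.79% higher and 7.05% lower, against 1 higher and 5 lower of the 9 members, above the background in the lower direction. Here too the excess is a description only, given how the members were chosen. The median difference was -0.37 for the members and 0.01 for all tested genes. Clca1 had 140, 251 and 379 FPKM in high salt day fed colon, against 333, 599 and 1474 in low salt day fed. It differed by -1.39 ± 0.14 (adjusted p = 1.2e-10), was lower at all 6 times with no overlap at 5 of them, and stayed between -1.46 and -1.30 under every alternative. At ZT20 its 3 libraries had 178, 360 and 140 FPKM in high salt day fed, against 1257, 1163 and 1474 in low salt day fed.

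Spink4 had 1378, 2551 and 5458 FPKM in high salt day fed, against 2982, 3721 and 9543 in low salt day fed, a difference of -0.77 ± 0.17 (adjusted p = 0.0014). Tff3, with 738, 1157 and 1767 FPKM against 918, 1574 and 2726, differed by -0.50 ± 0.13 (adjusted p = 0.0044). Zg16, with 550, 1278 and 1612 FPKM against 728, 1843 and 2939, differed by -0.47 ± 0.13 (adjusted p = 0.0084). Fcgbp differed by -0.37 ± 0.11 (adjusted p = 0.017), but it was lower at only 3 of the 6 times. Muc2 and Agr2, the mucin and its folding enzyme, did not pass, at 0.09 (95% interval -0.16 to 0.34) and -0.01 (-0.19 to 0.18).

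Atoh1 was the member called higher with high salt in day fed colon, although not on the FPKM as deposited (0.35, limma adjusted p = 0.094). It had 7.12, 12.7 and 18.1 FPKM in high salt day fed, against 6.88, 9.44 and 11.6 in low salt day fed, and differed by 0.40 ± 0.09 (adjusted p = 0.0020). The difference lay at ZT0, ZT4 and ZT8 (0.93, 0.63 and 0.71), and was near 0 at ZT12, ZT16 and ZT20 (-0.01, 0.07 and 0.04). At ZT0 the libraries had 15.5, 12.5 and 18.1 FPKM in high salt day fed and 9.03, 7.51 and 6.88 in low salt day fed. Spdef followed the same course, from 0.71 at ZT4 to -0.38 at ZT16, and did not pass on average (0.16, adjusted p = 0.278). The calls of Spink4 and Atoh1 were lost when every replicate numbered 3 was left out, and those of Tff3, Fcgbp and Zg16 also when every replicate numbered 2 was left out.

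Between the night fed groups 35.0% of all tested genes were called, 15.4% higher and 19.6% lower with high salt, and 3 members were called, 2 higher and 1 lower. Spink4 was higher by 0.86 ± 0.17 (adjusted p = 1.6e-04), Spdef higher by 0.51 ± 0.10 (adjusted p = 8.5e-05) and Zg16 lower by -0.51 ± 0.13 (adjusted p = 0.0019). In the cosine and sine fit without the libraries of low scale factor none of the 3 passed (0.46, 0.22 and -0.46), and in the same fit with all libraries each did (adjusted p between 1.3e-04 and 0.0064). Spdef was also lost on the FPKM as deposited (0.01). Clca1 did not differ beyond its error there (0.06, 95% interval -0.21 to 0.32).

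Rhythms were fitted as a 24 h cosine in each condition, with the amplitude given as the log2 distance from mean to peak. In the genotype arm few members passed. In Bmal1 knock out colon 56.7% of all tested genes were called rhythmic and 3 of 9 members, namely Agr2 with an amplitude of 0.56 ± 0.10 and a peak at ZT1.21 (adjusted p = 7.5e-05), Muc2 with 0.44 ± 0.11 and ZT3.30 (adjusted p = 0.0033) and Spdef with 0.28 ± 0.08 and ZT15.9 (adjusted p = 0.017). All 3 calls were lost in the cosine and sine fit without the low-scale libraries, 8 of which lay at ZT12, ZT16 and ZT20, and all 3 were kept in the same fit with every library. Without the 3 libraries apart Spink4 passed as well (0.66, adjusted p = 0.0014). None of the 3 is a Bmal1 knock out library, so the Spink4 amplitude stayed the same and the spread shared by the genotypes changed. In Bmal1 knock out Spink4 had 9828 to 20023 FPKM in the 9 low-scale libraries, against 4645 to 13984 in the other 9. Its fitted peak there was at ZT16.4. In MR knock out 21.7% of genes and 1 member were called, Fcgbp with a peak at ZT4.07 (0.56 ± 0.17, adjusted p = 0.042), and without the 3 libraries apart Fcgbp was lost (adjusted p = 0.086) and Zg16 passed (0.041). In wild type 17.7% of genes and 1 member were called, Spdef with a peak at ZT16.7 (0.28 ± 0.08, adjusted p = 0.042), and without the 3 libraries apart Agr2 passed too (0.33, adjusted p = 0.039). No member's rhythm differed between Bmal1 knock out and wild type, where 31.2% of genes did, or between MR knock out and wild type, where 0.835% did, by limma. At an unadjusted p under 0.05 it was 1 member in each, beside 45.3% and 10.9% of all tested genes.

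The 9 fitted peaks lay closest together in low salt day fed colon. Elsewhere some peaks came from nearly flat fits, whose peak time says little. Examples were Fcgbp in low salt night fed (amplitude 0.038) and Zg16 in high salt day fed colon (0.059). In low salt day fed colon 42.2% of all tested genes were called rhythmic, and 7 of the 9 members, all but Spink4 (adjusted p = 0.055) and Atoh1 (0.414). The peaks of all 9 lay within 4 h, between ZT14.8 for Spdef and ZT18.8 for Clca1, in the dark phase when these mice had no food. Zg16 had the largest amplitude, 0.64 ± 0.13 (adjusted p = 0.0012), followed by Clca1 at 0.52 ± 0.14, Fcgbp at 0.48 ± 0.11, Agr2 and Tff3 at 0.44 each, Muc2 at 0.43 and Spdef at 0.38. At ZT20 Zg16 had 2939, 2676 and 2933 FPKM, against 1127, 1059 and 728 at ZT4. Its calls and those of Muc2, Clca1, Tff3, Agr2 and Spdef were lost once the length score entered the fit, and that of Fcgbp was kept. The length scores of this group were 0.09, 0.12 and 0.16 at ZT4, and -0.23, -0.05 and -0.24 at ZT20.

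In high salt day fed colon, fed in the same phase, 31.6% of genes were called and 1 member, Atoh1, with a peak at ZT3.08 (0.33 ± 0.09, adjusted p = 0.021). The rhythms of 7 of the 9 members differed between high salt day fed and low salt day fed, against 11.3% of all tested genes. The largest difference was in Clca1, whose fitted peaks lay at ZT7.75 and ZT18.8 with amplitudes of 0.31 and 0.52 (difference 0.82 ± 0.19, adjusted p = 0.0095), followed by Muc2 (0.72 ± 0.18, ZT2.99 and ZT16.5, adjusted p = 0.015). Zg16, Fcgbp, Agr2, Spdef and Atoh1 also differed (0.69, 0.68, 0.57, 0.56 and 0.46, adjusted p between 0.0083 and 0.041), while Tff3 and Spink4 did not pass (0.57 and 0.54, adjusted p = 0.069 and 0.286). Each of the 7 calls was lost when at least 1 replicate number was left out, and those of Agr2, Zg16 and Atoh1 also when cosine and sine terms replaced the time means, with all libraries kept (adjusted p = 0.059, 0.073 and 0.074).

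**Figure D3:**
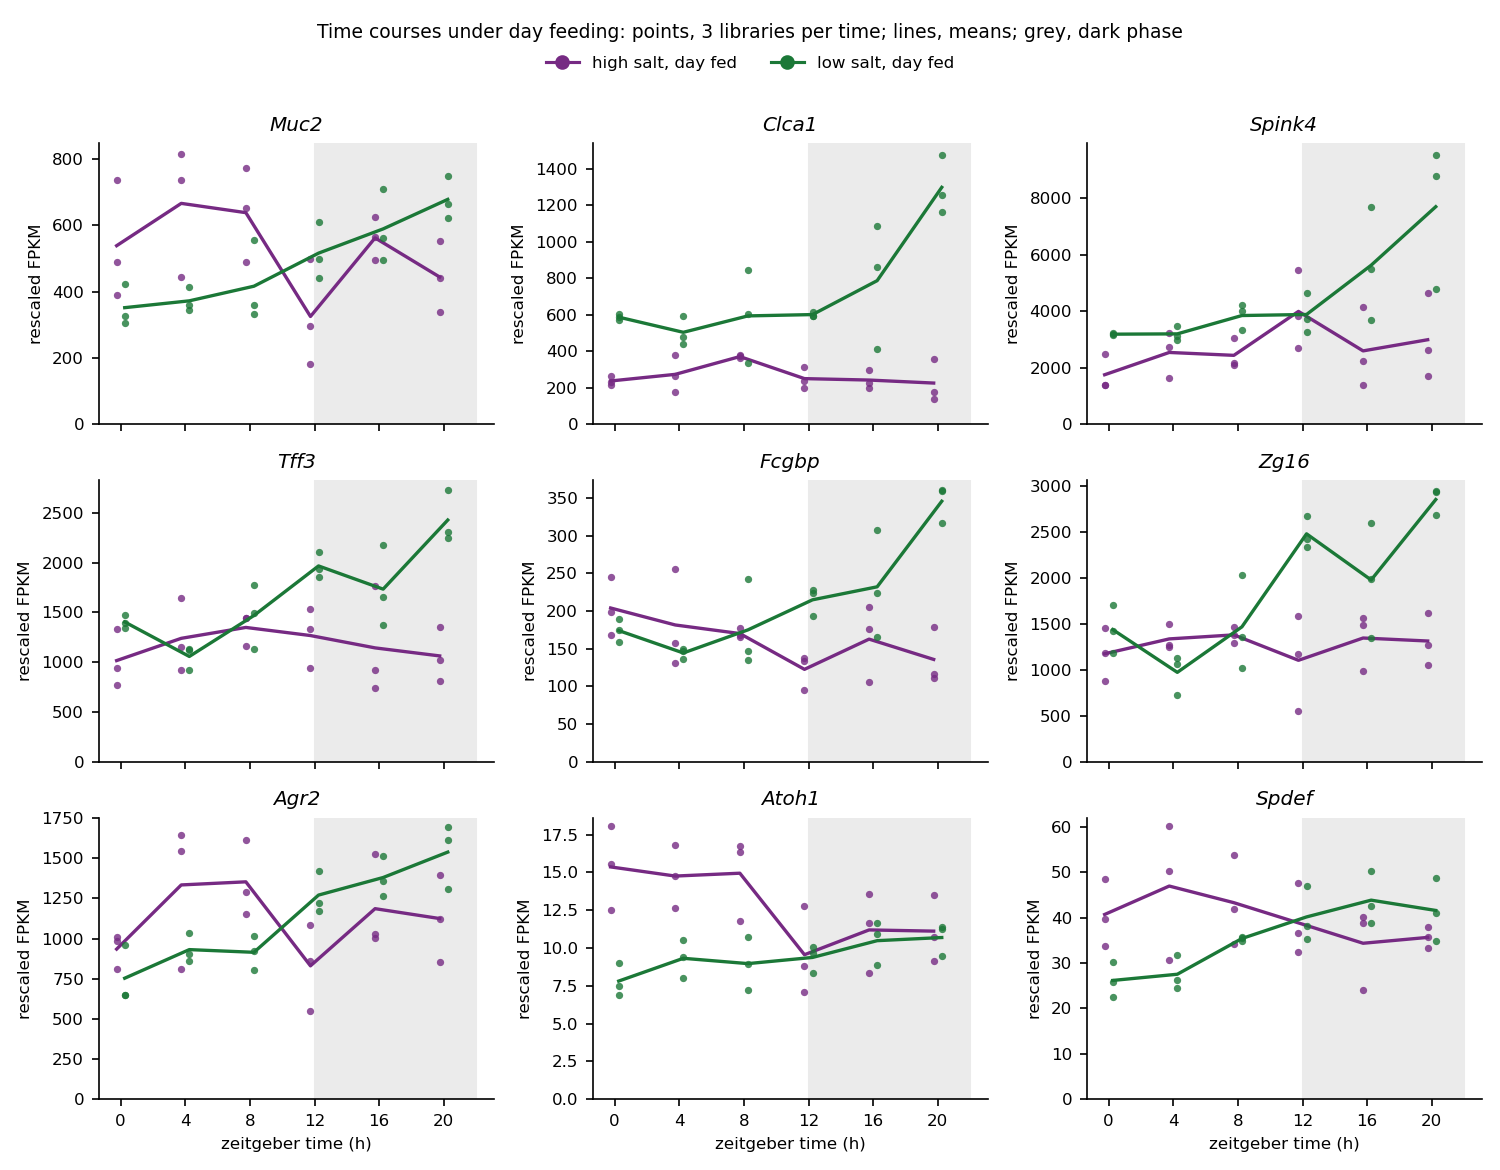
Rescaled FPKM of the 9 goblet cell genes over 6 zeitgeber times (x axis, hours) in high salt day fed and low salt day fed colon; points are single libraries and lines join the means of 3. In low salt day fed colon most genes climb toward ZT16 or ZT20, as Zg16 does from a mean of 971 FPKM at ZT4 to 2849 at ZT20, and in high salt day fed colon Atoh1 stands higher at ZT0, ZT4 and ZT8.

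In high salt night fed colon 57.0% of genes and 7 of 9 members were called, all but Fcgbp and Zg16. Spink4 had the largest amplitude of all, 1.0 ± 0.17 with a peak at ZT9.93 (adjusted p = 2.8e-05), and Muc2, Agr2 and Atoh1 peaked between ZT21.7 and ZT0.952. The 5 low-scale libraries of this group lie at ZT8 and ZT12, next to the Spink4 peak. In the cosine and sine fit without low-scale libraries all 7 calls were lost, with Spink4 at 0.31, whereas the same fit with all libraries kept 6 of them and lost Tff3 (adjusted p = 0.051). In low salt night fed colon 22.6% of genes and 2 members were called, Zg16 (0.47 ± 0.13, ZT13.2, adjusted p = 0.018) and Tff3 (0.42 ± 0.13, ZT13.3, adjusted p = 0.037). Zg16 was just lost with cosine and sine terms (adjusted p = 0.051).

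Feeding time at 1 salt level gave fewer rhythm differences among the members. Between low salt day fed and low salt night fed 38.6% of genes differed, and 2 members, Spink4 (0.90 ± 0.25, peaks at ZT17.5 and ZT7.78, adjusted p = 0.013) and Clca1 (0.58 ± 0.19, ZT18.8 and ZT5.76, adjusted p = 0.042). Between high salt day fed and high salt night fed 32.5% differed, and 2 members, Atoh1 (0.44 ± 0.13, adjusted p = 0.026) and Spink4 (0.75 ± 0.25, adjusted p = 0.044). With cosine and sine terms and all libraries, Clca1 on low salt (adjusted p = 0.059) and Spink4 on high salt (0.075) did not pass. Between high salt night fed and low salt night fed 12.3% differed and no member did by limma. At an unadjusted p under 0.05 it was 5 of the 9 members, beside 27.2% of all tested genes.

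**Figure D4:**
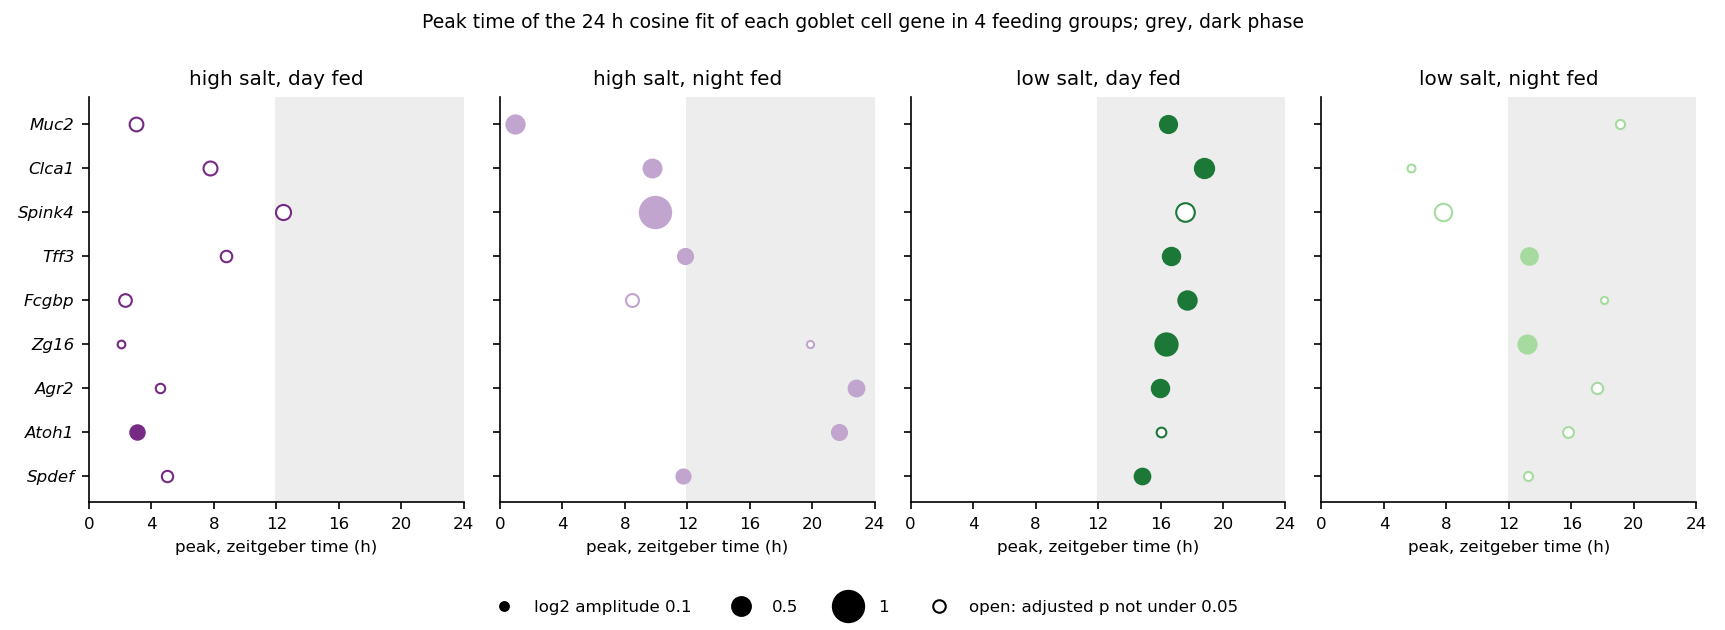
Fitted peak time (x axis, zeitgeber hours) of each goblet cell gene (y axis) in the 4 feeding groups; marker size grows with amplitude and filled markers had a limma adjusted p under 0.05. In low salt day fed colon the 9 peaks lie between ZT14.8 and ZT18.8, whereas they spread more widely in high salt day fed (ZT2.05 to ZT12.4), high salt night fed (over the whole cycle) and low salt night fed colon (ZT5.76 to ZT19.1). The smallest markers are nearly flat fits, whose peak time says little.

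The products were then set against the lineage factors in each library, as the mean log2 level of the 6 products minus that of Atoh1 and Spdef. This score is a description and was given no test. It averaged 5.71 ± 0.37 in Bmal1 knock out, 5.69 ± 0.45 in the MR knock out and 4.89 ± 0.42 in wild type colon, and 4.83 ± 0.32 in high salt day fed, 5.01 ± 0.32 in night fed on high salt, 5.68 ± 0.32 in low salt day fed and 5.26 ± 0.30 in low salt night fed colon (SD, n = 18 each). The score thus stood highest in the knock outs and in low salt day fed colon, but not through all products. Over wild type, Clca1 and Spink4 were higher by 1.48 and 2.53 in Bmal1 knock out and by 1.72 and 1.91 in MR knock out. With day feeding on low salt they were higher by 0.93 and 0.97, with no other product called. Fcgbp was higher in both knock outs (0.66 and 0.52). Muc2 was lower in both (-0.46 and -0.26), Zg16 was lower in MR knock out (-0.79), and Tff3 was called in neither. The 2 components did not move together. The product mean was 10.51 in Bmal1 knock out, 10.25 in the MR knock out and 9.75 in wild type, while the lineage mean was 4.79, 4.56 and 4.87. In Bmal1 knock out the lineage mean joined a lower Atoh1 (-0.57) and a higher Spdef (0.42). In low salt day fed colon the lineage mean was the lowest of all, 4.22, with a product mean of 9.90.

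The highest score in low salt day fed colon fell at ZT20, with 6.08, 6.17 and 6.32 in its 3 libraries, above all 15 others of that group. In wild type the highest single value, 6.15, was the ZT8 library that stood apart, and the other 17 lay at or below 5.29. In MR knock out the ZT20 library that stood apart gave the lowest value, 4.69. The ZT0 library that stood apart did not stand out in the score. The ZT0 libraries had 5.58, 5.67 and 5.84, near the group mean of 5.69.

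**Figure D5:**
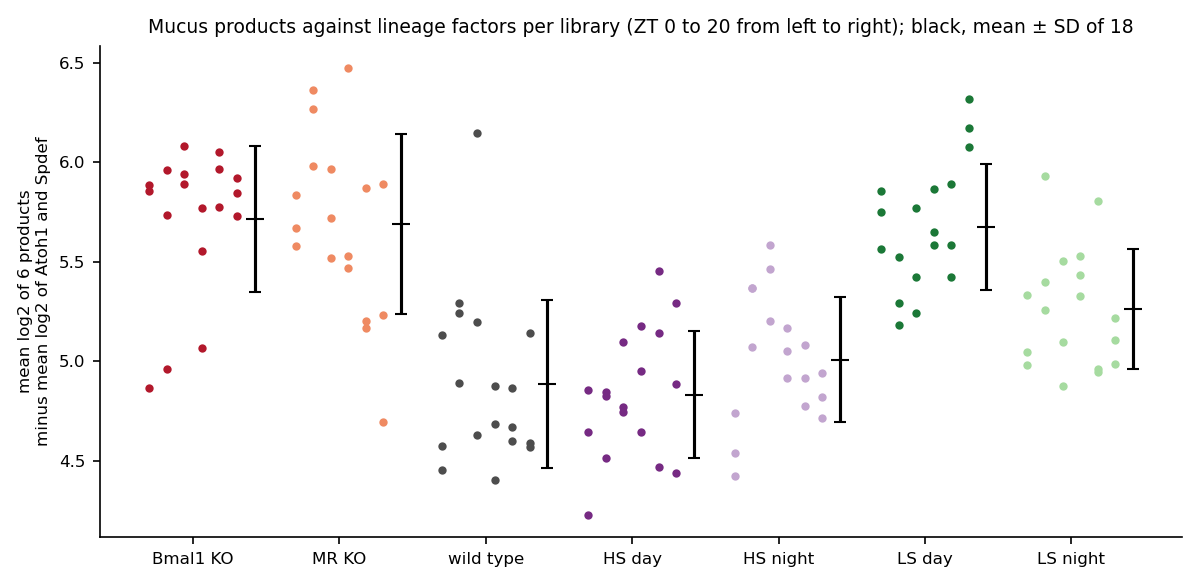
Mean log2 level of 6 mucus products minus that of Atoh1 and Spdef (y axis) in each library, by condition; points are single libraries, and black marks are the mean ± SD of 18. Means are 5.71 in Bmal1 KO and 5.69 in MR KO against 4.89 in wild type, and 4.83 in high salt (HS) day fed against 5.68 in low salt (LS) day fed.

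Members that vary together were described by Pearson correlation over the 42 means of condition and time. Both genes of a pair were read in the same libraries under the same scaling, and r takes in level differences between conditions and between the arms. These values carry no test. Over the 36 pairs r ran from -0.50 to 0.88 with a median of 0.21. Clca1 and Fcgbp (0.88), Clca1 and Spink4 (0.76), Muc2 and Agr2 (0.71), Muc2 and Atoh1 (0.70) and Tff3 and Zg16 (0.66) were the closest. Within a condition and time, over the deviations of all libraries, Tff3 with Zg16 (0.80), Muc2 with Atoh1 (0.73) and Clca1 with Spink4 (0.70) led. Spink4 and Atoh1 were opposed on both scales (-0.50 and -0.39). Atoh1 and Spdef, both lineage factors, had r of only 0.15 and 0.24.

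By the same measure, Spink4 was closest to Itln1 (0.96), encoding an intelectin, then Fkbp11 (0.94) and Krt18 (0.93), and Clca1 to Pnliprp2 (0.94), Mptx1 (0.93) and Rprm (0.93). Muc2 was closest to Bace2 (0.90), B4galt4 (0.85) and Pde2a (0.85), and Agr2 to Kdelr3 (0.87), which encodes a receptor that returns proteins to the endoplasmic reticulum. Spdef was closest to Foxa3 (0.86), a transcription factor of goblet cells, and Atoh1 to A4gnt (0.87), Nov (0.86) and Ptprn2 (0.86). Fcgbp was closest to Rprm (0.83) and Capn9 (0.82), Tff3 to Spink1 (0.76), and Zg16 had no close partner, its first being Naglu (0.66). Not all of these pairs were as close within a condition and time. There Spink4 with Itln1 was at 0.90 and Muc2 with Bace2 at 0.86. Muc2 with B4galt4 was at 0.46, Fcgbp with Rprm at 0.38 and Zg16 with Naglu at 0.41.

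Other genes of the goblet programme were read from lists. Each count below can be set beside the share of all tested genes called. Against wild type 31.1% of them were higher and 49.2% lower in Bmal1 knock out, and 24.7% and 41.3% in MR knock out. With day feeding 1.04% were higher and 2.29% lower on low salt, and 14.7% and 12.9% on high salt. With high salt 7.79% were higher and 7.05% lower in day fed colon, and 15.4% and 19.6% in night fed colon. Of 14 other goblet products 10 were tested. In Bmal1 knock out against wild type 5 were higher and 3 lower, in MR knock out 7 higher and 2 lower, and in both Retnlb, a resistin-like peptide, and Itln1 rose (4.59 and 4.66 in Bmal1 knock out, 3.30 and 3.99 in MR knock out). With the length score in the fit 3 were higher and 2 lower in Bmal1 knock out, and 7 and 2 in MR knock out. On low salt 4 were higher and none lower with day feeding, with Ang4, an antimicrobial ribonuclease, at 2.92, Itln1 at 2.30, Retnlb at 1.87 and Reg4 at 1.09 (limma adjusted p between 9.4e-08 and 1.9e-05). In high salt day fed against low salt day fed 1 was higher and 6 lower, among them Ang4 at -3.05, Retnlb at -1.56, Best2, a bestrophin channel of goblet cells, at -1.46 and Reg4 at -1.23. Itln1 also stood on the list of Paneth cell markers, of which 4 were measured. Of these Lyz1 and Mmp7 did not pass in either knock out, while Defa24 rose by 2.61 in Bmal1 knock out and 2.55 in MR knock out.

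Calls among the enzymes that glycosylate mucins were mostly lower in both knock outs. Muc2 was lower there too, while Clca1, Spink4 and Fcgbp were higher. Of 17 tested, 2 were higher and 13 lower in Bmal1 knock out, with B3gnt6 at -1.31, Gcnt1 at -1.41 and B3galt5 at -1.32, and 2 were higher and 10 lower in MR knock out, with B3gnt6 at -1.40. Of all tested genes 49.2% were lower in Bmal1 knock out and 41.3% in MR knock out. In the knock outs the lower calls outnumbered the higher ones under each scaling, but with the length score in the fit 4 were higher and 6 lower in Bmal1 knock out, and 3 and 4 in MR knock out. None was called by limma between low salt day fed and low salt night fed colon, where 7 had an unadjusted p under 0.05 and the smallest adjusted p was 0.134 (Gcnt3). In high salt day fed colon 9 were higher and 1 lower than in high salt night fed, and 6 higher and 1 lower than in low salt day fed, with Galnt12, which starts O-glycans, at 0.31 and 0.30. Between high salt night fed and low salt night fed 1 was higher and 6 lower. In the same order of comparisons, 14.7%, 7.79% and 15.4% of all tested genes were higher, and 12.9%, 7.05% and 19.6% lower. On the FPKM as deposited the counts became 17 higher and 0 lower in high salt day fed against high salt night fed, 1 and 0 against low salt day fed, and 0 and 17 in high salt night fed against low salt night fed. With the length score in the fit 11 were higher and 1 lower in high salt day fed than in low salt day fed colon.

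Of 18 genes of the secretory pathway 7 were higher and 7 lower in Bmal1 knock out, and 6 and 7 in MR knock out. Of all tested genes 31.1% were higher and 49.2% lower in Bmal1 knock out, and 24.7% and 41.3% in MR knock out. The Bmal1 counts depended on the setting, with 2 higher and 14 lower on the FPKM as deposited and 6 higher and 2 lower with the length score in the fit. In MR knock out they were 3 higher and 6 lower as deposited, and 4 higher and 2 lower with the length score. Fkbp11, a peptidyl-prolyl isomerase of the secretory pathway, rose by 1.77 and 0.96 in Bmal1 and MR knock out and by 0.63 with day feeding on low salt, where it was the only one of 18 called. Xbp1, a transcription factor of the unfolded protein response, was lower in Bmal1 knock out (-0.60). None was called by limma between high salt day fed and low salt day fed colon. There 6 of the 18 had an unadjusted p under 0.05, beside 28.7% of all tested genes. In high salt day fed 2 were higher and 5 lower than in high salt night fed, and 4 were higher in high salt night fed than in low salt night fed; on the FPKM as deposited these became 13 higher and 0 lower, and 1 higher and 13 lower.

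Of 13 regulators of the secretory lineage and Notch signalling 8 were lower in each knock out, with 3 higher in Bmal1 knock out and 2 in MR knock out, beside 49.2% and 41.3% of all tested genes lower. With the length score in the fit the lower count was 3 in Bmal1 knock out and 7 in MR knock out. Dll1, the Notch ligand of secretory progenitors, was lower by -1.12 and -0.78, Foxa1 by -0.73 in Bmal1 knock out and Sox9 by -0.68 in MR knock out. By limma none was called between low salt day fed and low salt night fed, and 2 had an unadjusted p under 0.05. The 3 membrane mucins tested, Muc1, Muc4 and Muc13, were all lower in Bmal1 knock out (-0.44, -1.15 and -0.69), where the length score in the fit left 1 call, and all higher in high salt day fed against high salt night fed (0.49, 0.66 and 0.43).

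Markers of other cells moved with the genotypes too, and several of their counts changed with the scaling or the length score. They stand beside 31.1% higher and 49.2% lower of all tested genes in Bmal1 knock out, and 24.7% and 41.3% in MR knock out. Of 7 crypt base markers 5 were lower and 1 higher in Bmal1 knock out, and 6 lower and 1 higher in MR knock out, beside 49.2% and 41.3% of all tested genes lower, with median sums of 42.7 FPKM in Bmal1 knock out, 40.2 in the MR knock out and 58.9 in wild type. The lower count of crypt base markers in Bmal1 knock out was 7 on the FPKM as deposited and 2 with the length score in the fit. Of 9 surface colonocyte markers 2 were higher and 5 lower in Bmal1 knock out, and 4 higher and 1 lower in MR knock out. Of the 7 epithelial markers 3 were higher and 3 lower in Bmal1 knock out, and 4 higher and 1 lower in MR knock out, with Krt18, a keratin, at 1.36 and 0.92. In Bmal1 knock out the epithelial counts became 1 higher and 6 lower on the FPKM as deposited, and 2 and 5 after quantile normalization. The surface colonocyte counts there became 0 higher and 8 lower as deposited, and 1 and 8 after quantile normalization. Of 4 tuft cell markers 2 were higher in Bmal1 knock out and 4 in MR knock out, where Alox5 differed by 0.91. On the FPKM as deposited 3 tuft markers were lower in Bmal1 knock out. Of 6 enteroendocrine markers 4 were lower in Bmal1 knock out, or 1 with the length score in the fit, and 5 in MR knock out, with Insl5, a peptide hormone of the distal gut, at -1.12 and -1.34. The 3 tested Hox genes of the distal colon were lower in both knock outs, with summed levels of 57.8 to 120 FPKM in Bmal1 knock out, 29.0 to 159 in MR knock out and 115 to 199 in wild type, and 2 of 3 were lower in high salt day fed (55.7 to 172) than in low salt day fed colon (131 to 278). All 3 were lower in high salt night fed (77.8 to 221) than in low salt night fed colon (118 to 260). T and B cell markers moved with genotype and feeding. Of 5 tested, 4 were higher in MR knock out than in wild type, with Cd8a at 0.59, or 2 without the 3 libraries apart. In Bmal1 knock out 3 were lower than in MR knock out (Cd8a at -0.53), beside 31.8% of all tested genes. Against wild type 1 was higher and 1 lower there, or 0 and 4 on the FPKM as deposited. In the feeding arm 5 were higher by limma in high salt day fed than in high salt night fed (Cd8a at 0.97), 4 lower in high salt night fed than in low salt night fed (-1.23) and 4 lower in low salt day fed than in low salt night fed (-0.54). The shares of all tested genes in those directions were 14.7%, 19.6% and 2.29%. In high salt day fed against low salt day fed 1 was higher, Jchain at 0.57. The part of sampled position along the colon and of cell composition in the differences above was not tested.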

How the data were processed

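The deposited tables, 1 for each condition, hold FPKM per gene for 18 libraries each. Per the submitters' processing notes, TopHat2 2.1.1 and Cufflinks 2.2.1 were used with build mm10. The Cufflinks options, strand and depth were not given in the sources used here, and counting intervals are therefore absent. The table gave the condition, and the column name gave the time and replicate. Nothing says that replicates are separate animals, so p-values measure only the spread between these samples, which may be technical.

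Each library was rescaled by the median of its ratios to the geometric mean, over 6966 genes with FPKM of at least 1 in all libraries. Of 24883 lines, 11380 reached a rescaled FPKM of 1 on average in some condition and were tested, on log2(rescaled FPKM + 0.5), a scale that understates changes of low genes. limma 3.58.1 (R 4.3.3) was fitted to a mean per condition and time, separately for 54 genotype libraries (36 residual degrees of freedom) and 72 feeding libraries (48). Levels are averages over 6 times, rhythms are F tests of cosine and sine contrasts with a 24 h period, and p-values were adjusted by Benjamini-Hochberg over all tested genes in each comparison. The scripts were tested on simulated data. The alternatives were the pseudocount, the filter, the scaling, a replicate block, array weights, fits of the compared conditions alone and leaving out replicates.

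The members and lists were chosen with earlier results of these data known. The text names all 9 members, Arntl and Nr3c2 as targeted genes, from each list up to 4 genes with the smallest adjusted p in a comparison, and for each member up to 3 genes of highest correlation. Members, repeated symbols and genes with Gm or Rik names were left out of that ranking by correlation. Lists covered other goblet products, mucin glycosylation, the secretory pathway, the secretory lineage, membrane mucins and markers of other cells. The Hox list, the length score, and the fits with cosine and sine terms in place of time means (with all libraries, and without the low-scale ones) or without the 3 libraries apart were added after the data were seen.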

Additional observations from a re-analysis of the deposited data

Results flagged for a closer look

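The effect of day feeding against night feeding differed between diets for 3 goblet genes, each by a test of the difference itself in limma with Benjamini-Hochberg adjustment. High salt minus low salt, the effect differed by -1.45 on the log2 scale for Clca1 (adjusted p = 7.0e-08) and by -1.63 for Spink4 (adjusted p = 1.4e-06), both of them secreted products. It differed by 0.43 for Atoh1, the lineage factor (adjusted p = 0.020). The effect of Bmal1 knock out minus that of MR knock out also differed for 3 genes by limma. It was 1.09 for Zg16, the lectin (adjusted p = 1.9e-05), 0.43 for Spdef (adjusted p = 5.0e-05) and 0.62 for Spink4 (adjusted p = 0.033). The wild type libraries are common to both knock out effects and drop out of this difference. On the FPKM as deposited the last 2 changed sign, Spdef to -0.29 and Spink4 to -0.11, and Zg16 did not pass. Spink4 also lost its call without the 3 libraries apart. In the cosine and sine fit without low-scale libraries, Spdef (limma adjusted p = 0.147) and Spink4 (0.363) did not pass. Nor did the Atoh1 difference between diets there (0.124).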

How the results depend on the processing

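Each result was refitted under alternatives that changed 1 choice at a time, except the fit without low-scale libraries, which also put cosine and sine terms in place of the time means. The same terms with all libraries kept were run as a separate alternative, added after the data were seen. The pseudocounts of 0.1 and 1 and the filter at a mean rescaled FPKM of 5 changed no call and no direction among 189 member results. Of 35 called level differences, 10 kept their call under every alternative and in every leave-one-out fit. These were Clca1 and Spink4 in both knock outs over wild type and in the salt and feeding interaction, Clca1 in high salt day fed over low salt day fed and in low salt day fed over low salt night fed, and Zg16 and Atoh1 in MR knock out over wild type. The other calls among the 35 were lost at least once, as was each of 33 called rhythms and rhythm differences. In no condition did the product minus lineage score move by more than its SD under the alternatives computed for it. The cause of a lost call or a turned sign was not tested. Over all tested genes the lowest and highest counts under an alternative lay far apart; rhythm differences between MR knock out and wild type, for example, ran from 7 on the FPKM as deposited to 6094 with array weights, and rhythms of Bmal1 knock out from 753 with cosine and sine terms and no low-scale libraries to 10845 on the FPKM as deposited. Replicate numbers did not pair the samples, since same-numbered samples of compared conditions had a mean correlation of deviations of -0.05 over 108 pairs, 29 of them above 0.1. A replicate block in the fit changed 3 of 189 member calls, all gained, and lost none. The sources used here give no sequencing depth, so what depth limits was not assessed, and 3 libraries per time limit every day course. Below, conditions are abbreviated as Bmal1 KO and MR KO for the knock outs, WT for wild type, and HSD, HSN, LSD and LSN for high salt day fed, high salt night fed, low salt day fed and low salt night fed. Counts are members called of 9, given where they moved by more than 1.5 times. On the FPKM as deposited, level counts became 3 higher in the salt and feeding interaction, 0 higher and 7 lower in Bmal1 KO over MR KO, 2 higher and 6 lower in Bmal1 KO over WT, 4 higher and 0 lower in HSD over HSN, 0 higher in HSD over LSD, 1 higher and 7 lower in HSN over LSN and 0 lower in LSD over LSN. Rhythm counts became 7 in Bmal1 KO, 0 in MR KO, 5 in HSD and 0 in WT. Rhythm difference counts became 6 in Bmal1 KO over WT, 7 in HSD over HSN and 6 in HSN over LSN. Signs turned for Agr2 0.22, Fcgbp 0.16, Spdef 0.095 and Tff3 0.21 in the salt and feeding interaction, Agr2 -0.59, Atoh1 -0.64, Fcgbp -0.59, Spdef -0.29, Spink4 -0.11 and Tff3 -0.64 in Bmal1 KO over MR KO, Agr2 -0.61, Fcgbp -0.24, Spdef -0.47, Tff3 -0.89 and Zg16 -0.60 in Bmal1 KO over WT, Agr2 -0.018 in MR KO over WT, Agr2 0.41, Fcgbp 0.29, Spdef 0.13, Tff3 0.21 and Zg16 0.11 in HSD over HSN, Agr2 -0.27 and Clca1 -0.44 in HSN over LSN and Tff3 0.0054 in LSD over LSN. After quantile normalization, level counts became 3 lower in Bmal1 KO over MR KO, 3 higher and 5 lower in Bmal1 KO over WT, 2 lower in HSD over HSN, 2 lower in HSN over LSN and 2 lower in LSD over LSN. Rhythm counts became 0 in MR KO, 4 in HSD, 4 in LSD, 1 in LSN and 3 in WT. Those of rhythm differences became 1 in Bmal1 KO over WT, 2 in HSN over LSN and 1 in LSD over LSN. Signs turned for Agr2 0.037 and Tff3 0.024 in the salt and feeding interaction, Agr2 -0.25 and Tff3 -0.27 in Bmal1 KO over MR KO, Agr2 -0.37, Tff3 -0.66 and Zg16 -0.46 in Bmal1 KO over WT, Agr2 -0.12 in MR KO over WT, Agr2 0.16 in HSD over HSN, Agr2 0.10 in HSD over LSD and Clca1 -0.056 in HSN over LSN. With limma array weights, level counts became 2 higher and 5 lower in the salt and feeding interaction, 2 lower in Bmal1 KO over MR KO, 2 higher in HSD over LSD and 2 lower in LSD over LSN. Rhythm counts became 6 in Bmal1 KO, 7 in MR KO, 8 in HSD, 6 in LSN and 3 in WT. Those of rhythm differences became 4 in Bmal1 KO over WT, 6 in MR KO over WT, 8 in HSD over HSN, 7 in HSN over LSN and 6 in LSD over LSN. Signs turned for Agr2 0.0010 in HSD over HSN, Agr2 0.062 in HSD over LSD, Tff3 0.060 in LSD over LSN and Zg16 -0.11 in the salt and feeding interaction. With no filter on low values, level counts became 0 lower in LSD over LSN. Rhythm counts became 0 in MR KO, 1 in LSN and 0 in WT. Rhythm difference counts became 1 in HSD over HSN and 1 in LSD over LSN. In fits of the compared conditions alone, level counts became 2 lower in LSD over LSN. Rhythm counts became 0 in MR KO, 0 in HSD, 1 in LSN and 2 in WT. Rhythm difference counts became 0 in HSD over HSN and 5 in LSD over LSN. With cosine and sine terms and all libraries, level counts became 0 lower in LSD over LSN. Rhythm counts became 1 in LSN. Rhythm difference counts became 1 in HSD over HSN, 4 in HSD over LSD and 1 in LSD over LSN. Without the 14 low-scale libraries, with cosine and sine terms, level counts became 0 higher in the salt and feeding interaction, 1 higher in Bmal1 KO over MR KO, 3 higher and 1 lower in Bmal1 KO over WT, 0 lower in HSD over HSN, 0 higher and 0 lower in HSN over LSN and 0 lower in LSD over LSN. Rhythm counts became 0 in Bmal1 KO, 0 in MR KO, 0 in HSN, 1 in LSN and 0 in WT. Rhythm difference counts became 1 in HSD over HSN and 4 in HSD over LSD. Signs turned for Atoh1 -0.046 in Bmal1 KO over MR KO, Clca1 -0.24 in HSN over LSN, Fcgbp 0.079 in HSD over HSN and Zg16 -0.0064 in the salt and feeding interaction. With the length score in the fit, level counts became 3 higher and 1 lower in Bmal1 KO over WT, 2 lower in HSD over HSN, 2 lower in HSN over LSN and 2 lower in LSD over LSN. Rhythm counts became 4 in HSN, 1 in LSD and 3 in WT. Those of rhythm differences became 1 in Bmal1 KO over WT, 4 in HSD over HSN, 2 in HSN over LSN and 0 in LSD over LSN. Signs turned for Agr2 0.031 in HSD over HSN, Agr2 0.0095 in HSD over LSD, Atoh1 0.0044 and Clca1 -0.080 in HSN over LSN, Spdef -0.014 in LSD over LSN, Tff3 -0.15 in Bmal1 KO over MR KO and Tff3 -0.58 in Bmal1 KO over WT. With the 3 libraries that stood apart left out, rhythm counts became 2 in WT. Signs turned for Spdef 0.083 in MR KO over WT. With a replicate block, rhythm difference counts became 4 in HSD over HSN. In the leave-one-out fits the level counts ran 0 to 1 higher in the salt and feeding interaction, 0 to 2 lower in Bmal1 KO over MR KO, 3 to 6 higher in Bmal1 KO over WT, 1 to 5 lower in HSD over HSN, 0 to 1 higher and 1 to 5 lower in HSD over LSD, 0 to 1 lower in HSN over LSN and 1 to 2 higher and 0 to 1 lower in LSD over LSN. The rhythm counts ran 1 to 5 in Bmal1 KO, 0 to 3 in MR KO, 0 to 2 in HSD, 2 to 8 in HSN, 1 to 8 in LSD, 0 to 3 in LSN and 0 to 2 in WT. The rhythm difference counts ran 0 to 2 in Bmal1 KO over WT, 0 to 4 in HSD over HSN, 0 to 8 in HSD over LSD, 0 to 3 in HSN over LSN and 0 to 4 in LSD over LSN. They also turned the sign of some differences that had no call. These were Agr2 (-0.12 to 0.037) and Fcgbp (-0.36 to 0.053) in HSD over HSN, Agr2 (-0.060 to 0.090) and Muc2 (-0.047 to 0.21) in HSD over LSD, Atoh1 (-0.071 to 0.087) and Clca1 (-0.58 to 0.15) in Bmal1 KO over MR KO and Atoh1 (-0.094 to 0.078) in HSN over LSN. Others were Fcgbp (-0.47 to 0.0049) and Zg16 (-0.069 to 0.23) in the salt and feeding interaction, Spdef (-0.081 to 0.10) and Tff3 (-0.20 to 0.093) in MR KO over WT, Spdef (-0.051 to 0.091) and Tff3 (-0.071 to 0.056) in LSD over LSN and Tff3 (-0.10 to 0.16) in Bmal1 KO over WT.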
